A study of Mus musculus with 23 samples.

Results

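The subject is 10 transcriptional regulators that set or maintain the identity of brown adipocytes, measured in mouse brown adipose tissue (BAT). They were taken by symbol from a table of 14651 genes, and all 10 were found: Prdm16, Ebf2, Pparg, Ppara, Cebpa, Cebpb, Cebpd, Irf4, Nfia and Ehmt1. RNA was sequenced from the BAT of 23 male C57BL/6 mice aged 8 to 12 weeks, in 4 groups that cross genotype with temperature. Every mouse, controls included, was homozygous for an Mcu allele with loxP sites around exon 2 (Mcu fl/fl), Mcu being the pore subunit of the mitochondrial calcium uniporter. BAT-Mcu-KO mice (called knockouts below) also carried the UCP1-Cre transgene. Its Cre recombinase is made under the Ucp1 promoter, so deletion was directed to cells that use this promoter and not to the other cells of the depot. Control mice lacked the transgene, so the presence of the transgene and the loss of Mcu cannot be told apart.

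At room temperature (RT) there were 6 mice of each genotype, and at 4°C 5 were controls and 6 were knockouts. Mice at 4°C stayed there for 6 h, each alone in a cage without bedding and, by the general protocol, without food. What the mice at RT were fed over those hours is not given in the sources used here, so cold, loss of food and single housing cannot be told apart in any comparison of temperatures.

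Brown adipocytes burn lipid to make heat through the uncoupling protein UCP1, and a small set of DNA-binding proteins opens and keeps active the genes of this cell type. PPARγ and C/EBP proteins take part in the formation of adipocytes, while EBF2, PRDM16 and NFIA steer cells to the brown type. IRF4 and PPARα are better known for linking fasting, lipid supply and cold to metabolic and thermogenic genes in the mature cell.

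The promoters of Cebpa, Cebpb, Ppara and Irf4 are shown because Cebpa fell most at 4°C, Cebpb is a relative that rose, Ppara is the only other member with a match to a searched motif, and Irf4 rose most in the knockouts. Each is the 250 bases just before the RefSeq transcript start on GRCm38.p6, written 5′ to 3′ along the gene. Capitals mark TGACG, the core of the cyclic AMP response element (CRE), which reads CGTCA when it lies on the other strand.
Cebpa, chr7:35119043-35119292, + strand: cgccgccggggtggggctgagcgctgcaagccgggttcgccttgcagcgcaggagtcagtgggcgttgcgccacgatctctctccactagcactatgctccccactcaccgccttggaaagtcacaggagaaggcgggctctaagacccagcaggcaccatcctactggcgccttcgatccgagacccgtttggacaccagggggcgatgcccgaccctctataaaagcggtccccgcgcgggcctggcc
Cebpb, chr2:167688665-167688914, + strand: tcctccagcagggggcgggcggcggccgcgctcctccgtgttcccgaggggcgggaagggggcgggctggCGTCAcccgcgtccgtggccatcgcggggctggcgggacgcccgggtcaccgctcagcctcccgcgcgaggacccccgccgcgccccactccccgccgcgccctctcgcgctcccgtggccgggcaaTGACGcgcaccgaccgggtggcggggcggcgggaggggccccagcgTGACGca
Ppara, chr15:85735526-85735775, + strand: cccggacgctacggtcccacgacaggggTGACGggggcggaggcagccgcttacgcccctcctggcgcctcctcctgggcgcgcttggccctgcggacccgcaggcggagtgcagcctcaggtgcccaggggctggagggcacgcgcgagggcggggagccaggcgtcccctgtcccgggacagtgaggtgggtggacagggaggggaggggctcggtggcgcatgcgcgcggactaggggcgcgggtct
Irf4, chr13:30748983-30749232, + strand: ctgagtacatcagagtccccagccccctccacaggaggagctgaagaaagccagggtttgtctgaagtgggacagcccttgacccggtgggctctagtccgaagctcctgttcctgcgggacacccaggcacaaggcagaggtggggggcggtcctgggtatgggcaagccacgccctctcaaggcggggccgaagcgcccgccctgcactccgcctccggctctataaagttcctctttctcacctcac
RefSeq windows were found for 8 of the 10 members, and Ebf2 and Cebpd had none in the table used. Both strands were searched for the full CRE TGACGTCA, its core TGACG (which lies within the full CRE), the C/EBP-ATF composite TGATGCAA, the C/EBP palindrome TTGCGCAA, the E-box CACGTG and the EBF motif. The Cebpb window held 3 copies of TGACG, at 180 to 176, 53 to 49 and 7 to 3 bases before the start. At least 1 copy was present in 17.8% of 32851 windows of this length, and 3 or more in 0.688%. These shares were not adjusted for base content. G and C made up 81.6% of the Cebpb window and 76.4% of the Ppara window, against a median of 52.4% over all windows. How often windows this rich in G and C hold TGACG was not tested. The Ppara window held 1 copy, at 222 to 218 bases before the start. None of the searched motifs matched in the windows of Cebpa, Irf4, Prdm16, Pparg, Nfia or Ehmt1. The only Nfia window, chr4:97581693-97581942, lies outside the annotated gene (chr4:97772734-98118874), so the bases before that annotated start were not searched. Over all windows the full CRE was present in 1.55%, the composite in 0.791%, the palindrome in 0.164%, the E-box in 6.02% and the EBF motif in 0.779%. Such matches describe letters and do not show binding.

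The values are normalized counts, the reads of a gene divided by a factor for the depth of the library, which ranged from 7129271 to 21006347 reads. Mcu itself was at 70.8 to 136 in the 11 control mice and at 15.2 to 42.4 in the 12 knockouts, without overlap. All 8 brown adipocyte markers were present, and their summed normalized count was 195018 to 341496 per mouse. The log2 difference of this sum between 4°C and RT was 0.44 in control (exact permutation test, two-sided, p = 0.00866, adjusted p = 0.0554) and 0.61 in the knockouts (exact p = 0.00216, adjusted p = 0.0231). Much of the sum is Ucp1, whose mean normalized count was 63859 at RT and 165205 at 4°C in control mice. Of the 8 markers 3 were called higher and 3 lower by cold in control, and 2 and 0 in the knockouts. All 6 skeletal muscle markers were present at a summed level of 6.22 to 42697, and 5 mice at or above 20000 (control 4°C replicates 2 and 5, BAT-Mcu-KO RT replicates 3, 4 and 6) stood apart. Counts of genes called by cold are therefore also given for the other 18 mice. This shrinks the control 4°C and BAT-Mcu-KO RT groups, so for a call lost there, fewer mice and less muscle RNA cannot be told apart. The summed level of 5 endothelial markers was higher at 4°C by a log2 difference of 0.79 in control (exact permutation p = 0.00433, adjusted p = 0.0346) and 0.69 in the knockouts (exact p = 0.00216, adjusted p = 0.0231). Of these 5 markers 2 were called higher and 0 lower by cold in each genotype. The macrophage, fibroblast, smooth muscle and Schwann cell sums passed no comparison after adjustment over all lists and comparisons. The part of other cells in the results below was not tested, and in whole tissue fewer cells of a type and less RNA per cell cannot be told apart.

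Cold changed most members in both genotypes, some upward and others downward. In control mice 5 of 10 were called higher and 4 lower at 4°C (limma, Benjamini-Hochberg adjusted p under 0.05 over 14651 genes), where 22.3% of all genes were called higher and 23.7% lower. Among the knockouts 4 were called higher and 4 lower, against 21.4% and 21.9% of all genes. The median absolute log2 fold change of the members was 0.83 in both genotypes, and that of all genes was 0.45 in control and 0.40 in the knockouts. All 10 members had the same sign in both genotypes, which share no mouse, as did 83.3% of all genes. Called in the same direction in both were 8 members, against 34.8% of all genes. All members but Cebpd had a mean normalized count of at least 50. Of the 9531 genes that reached this mean, 2856 were called higher and 2566 lower in control, and 2705 and 2365 in the knockouts. The share of genes at a like level called in both was not tested, and the members were chosen with earlier results known. Without the 5 mice rich in muscle RNA, 3 members were called higher and 4 lower in each genotype, against 19.0% and 19.6% of all genes in control and 16.4% and 15.7% in the knockouts.

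**Figure D1:**
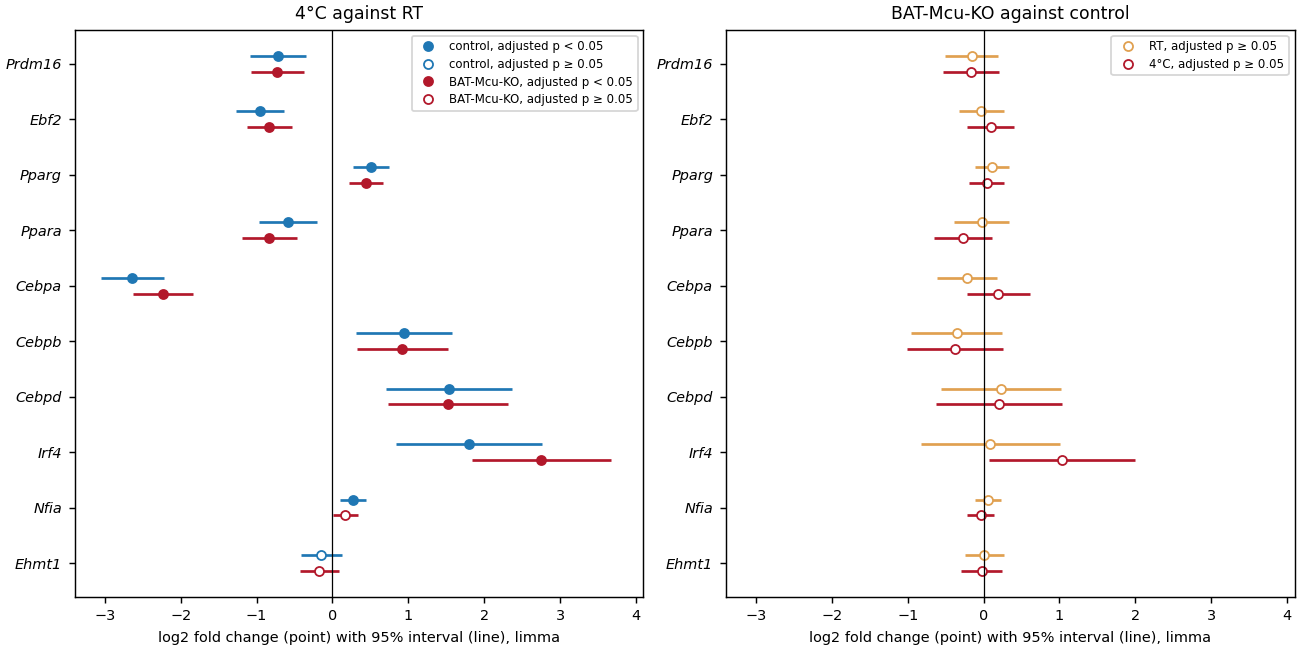
Log2 fold change of each member with its 95% interval by limma, for 4°C against RT (left) and for BAT-Mcu-KO against control (right); filled points have an adjusted p under 0.05. Cebpa lies farthest below 0 on the left (-2.64 in control) and Irf4 farthest above (2.75 in BAT-Mcu-KO), while no point on the right is filled.

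Prdm16 encodes a zinc finger protein that holds brown fat precursors on the brown path. Its normalized count in control mice was 455 to 755 at RT (median 485), and 229, 369, 290, 349 and 395 in control 4°C replicates 1 to 5. Every control mouse at 4°C was below every control mouse at RT. The knockouts were at 308 to 696 at RT (median 458) and 217 to 361 at 4°C (median 278), where the groups overlapped. Prdm16 fell in both, with a log2 fold change of -0.71 (SE 0.18, limma adjusted p = 0.00206) in control and -0.73 (SE 0.17, adjusted p = 0.00128) in the knockouts.

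Ebf2 encodes an early B cell factor that marks committed brown precursors and recruits PPARγ to brown fat genes. Its normalized count in control mice was 745 to 1280 at RT (median 974), and 514, 590, 551, 386 and 548 in control 4°C replicates 1 to 5. For knockout mice it was 855 to 1143 at RT (median 979) and 363 to 684 at 4°C (median 575). Neither genotype showed overlap between the temperatures. Ebf2 fell by 48.4% in control (log2 fold change -0.96, SE 0.15, limma adjusted p = 1.29e-05) and by 43.8% in the knockouts (-0.83, SE 0.15, adjusted p = 4.42e-05).

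Nfia encodes a nuclear factor I protein that opens chromatin at brown fat genes. Its normalized count in control mice was 3856 to 5187 at RT (median 4716), and 5694, 5987, 5515, 4917 and 5366 in control 4°C replicates 1 to 5. Among the knockouts it was 4288 to 5148 at RT (median 4801) and 4477 to 5875 at 4°C (median 5470). The temperatures overlapped in both genotypes. Nfia rose in control by a log2 fold change of 0.27 (SE 0.09, limma adjusted p = 0.0112), and in the knockouts the value was 0.17 (SE 0.08, adjusted p = 0.0924). The control call was lost with quantile normalization (0.12, adjusted p = 0.311) and with scaling to the 75th percentile (0.16, adjusted p = 0.120). It was also lost without the mice rich in muscle RNA, where fewer mice were left (0.24, adjusted p = 0.0828). Among the knockouts the call was gained without BAT-Mcu-KO 4°C replicate 4 (0.22, adjusted p = 0.0286).

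Ehmt1 encodes a histone H3 lysine methyltransferase that works in a complex with PRDM16. It had a normalized count of 385 to 577 in control mice at RT (median 479) and of 427, 439, 401, 439 and 407 in control 4°C replicates 1 to 5. The knockouts were at 396 to 566 at RT (median 466) and 311 to 524 at 4°C (median 429). All groups overlapped. The log2 fold change was -0.14 in control (95% interval -0.41 to 0.13, limma adjusted p = 0.386) and -0.18 in the knockouts (-0.43 to 0.08, adjusted p = 0.272), so neither passed the test.

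**Figure D2:**
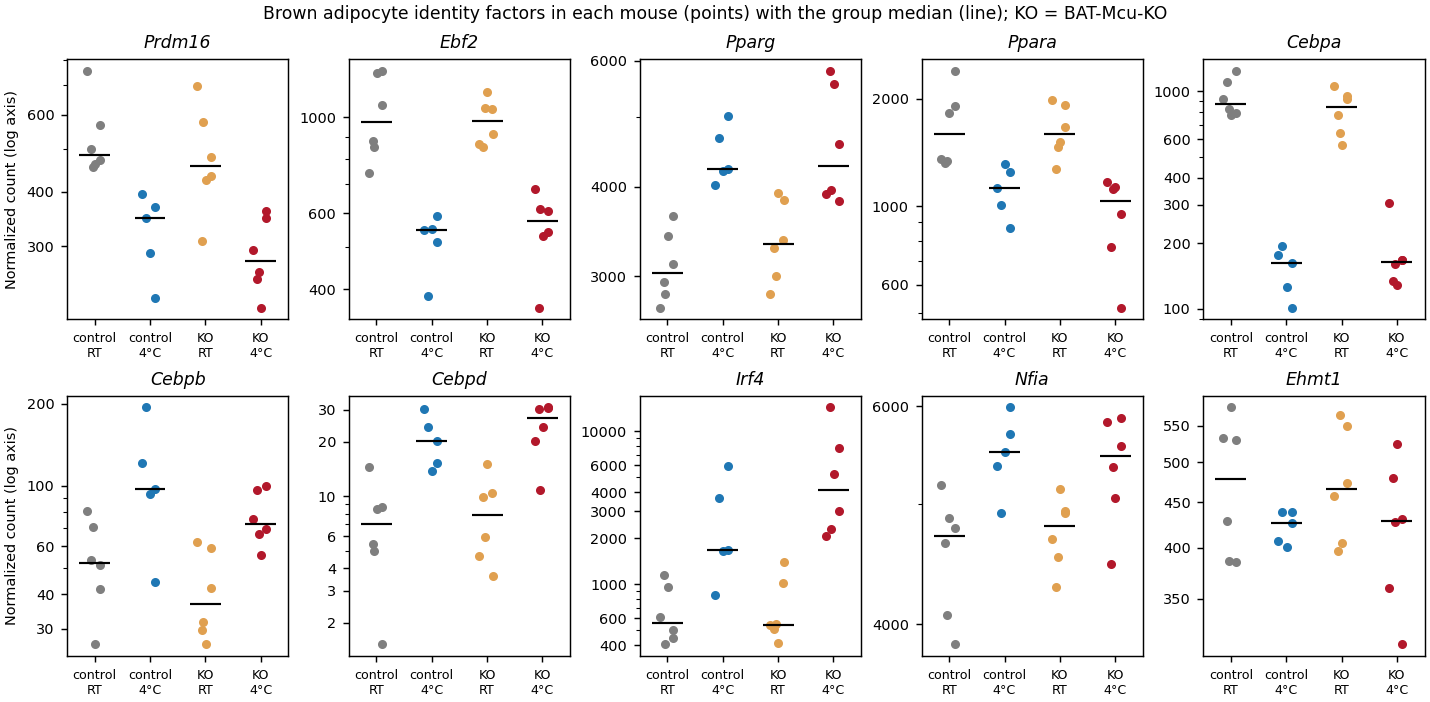
Normalized count (log axis, with its own range in each panel) of the 10 members in each of the 23 mice, with 1 point per mouse and a line at the group median. Cebpa separates the temperatures in both genotypes (778 to 1238 in control at RT against 101 to 195 at 4°C), and Irf4 spreads widely within the cold groups.

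Pparg and Ppara, 2 nuclear receptors that bind fatty acids and pair with the retinoid X receptors, moved in opposite directions. Pparg, the central regulator of adipocyte formation, had a normalized count of 2715 to 3648 in control mice at RT (median 3035), and of 5025, 4234, 4208, 4674 and 4019 in control 4°C replicates 1 to 5. For knockout mice it was 2837 to 3924 at RT (median 3331) and 3824 to 5805 at 4°C (median 4275). The control groups did not overlap and the knockout groups did. Pparg rose 1.43-fold in control (log2 fold change 0.51, SE 0.11, limma adjusted p = 0.000643) and 1.35-fold in the knockouts (0.44, SE 0.11, adjusted p = 0.00196). Its transcripts from different starts were counted together, so isoforms cannot be told apart.

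Ppara, a receptor that drives fatty acid oxidation, had a normalized count of 1319 to 2398 in control mice at RT (median 1589), and of 866, 1246, 1309, 1007 and 1122 in control 4°C replicates 1 to 5. Among the knockouts it was 1272 to 1983 at RT (median 1591) and 519 to 1171 at 4°C (median 1035). Every cold mouse was below every RT mouse of its genotype. Ppara fell, with a log2 fold change of -0.58 in control (SE 0.19, limma adjusted p = 0.0117) and -0.83 in the knockouts (SE 0.18, adjusted p = 0.000425). Per kb of exon, the Pparg level was 2.54 times the Ppara level in the median control mouse at RT and 4.65 times at 4°C. The same ratio was 2.64 and 6.33 in the knockouts, and the ranges of the RT and cold mice did not meet in either genotype.

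The C/EBP family, leucine zipper factors that act in turn during adipocyte formation, split by member. Cebpa, which is switched on late and maintains the mature adipocyte, had a normalized count of 778 to 1238 in control mice at RT (median 874), and of 101, 162, 126, 195 and 176 in control 4°C replicates 1 to 5. The knockouts were at 563 to 1056 at RT (median 848) and 128 to 305 at 4°C (median 164). The temperatures were far apart in both genotypes. Cebpa fell by 84.0% in control (log2 fold change -2.64, SE 0.20, limma adjusted p = 1.09e-10) and by 78.7% in the knockouts (-2.23, SE 0.19, adjusted p = 9.76e-10), the largest fall among the 10 members in both.

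Cebpb, an early, cyclic AMP-responsive member that works with PRDM16 in brown precursors, was at a low level. Its normalized count in control mice was 26.4 to 80.8 at RT (median 52.4), and 44.5, 97.1, 93.3, 194 and 121 in control 4°C replicates 1 to 5, where replicate 1 lay within the RT range. For knockout mice it was 26.3 to 62.3 at RT (median 36.9) and 55.9 to 99.9 at 4°C (median 72.6). The temperatures thus overlapped in both genotypes. Cebpb rose, with a log2 fold change of 0.95 in control (SE 0.31, limma adjusted p = 0.0133) and 0.92 in the knockouts (SE 0.29, adjusted p = 0.0126). Neither call held without the mice rich in muscle RNA, where fewer mice were left and the values were 0.86 (adjusted p = 0.0578) and 0.49 (adjusted p = 0.317). Without control 4°C replicate 4 the control value was 0.71 (adjusted p = 0.0633). The knockout call held with each of 12 knockouts left out in turn (limma adjusted p = 0.00662 to 0.0354). Without strand, reads from the 312 exonic bases (20.7% of Cebpb) shared with Tmem189, a gene on the other strand, cannot be told apart. Whether such reads were counted or dropped is not given, and levels per kb of exon use the full length, shared bases included. Tmem189 had a log2 fold change of -0.11 in control (adjusted p = 0.678) and 0.05 in the knockouts (adjusted p = 0.842).

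Cebpd, the other early member, was close to the limit of detection. It had 2 to 14 reads per control mouse at RT, a normalized count of 1.52 to 14.5 (median 6.97), and normalized counts of 20.2, 15.2, 13.7, 24.2 and 30.5 in control 4°C replicates 1 to 5. Among the knockouts the normalized count was 3.62 to 15.0 at RT (median 7.89) and 10.8 to 30.9 at 4°C (median 27.1). The cold mice were mostly higher, with overlap in both genotypes. Cebpd rose, with a log2 fold change of 1.54 in control (SE 0.40, limma adjusted p = 0.00283) and 1.52 in the knockouts (SE 0.39, adjusted p = 0.00235). At this depth the size depends on the constant added before the logarithm, and with 10 in place of 1 the values were 0.84 and 0.91, both called. Its exons share 562 bases (15.0%) with Spidr on the other strand, which had a log2 fold change of -0.30 in control (adjusted p = 0.187) and -0.28 in the knockouts (adjusted p = 0.197).

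The ratio of Cebpa to Cebpb differed between the temperatures without overlap, and was not tested. Per kb of exon, the level of Cebpa was 10.3 times that of Cebpb in the median control mouse at RT (range 6.48 to 16.9) and 0.828 times at 4°C (0.573 to 1.30). Among the knockouts the ratio was 11.9 at RT (9.15 to 15.0) and 1.34 at 4°C (0.786 to 2.29). No cold mouse reached the lowest RT ratio.

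**Figure D3:**
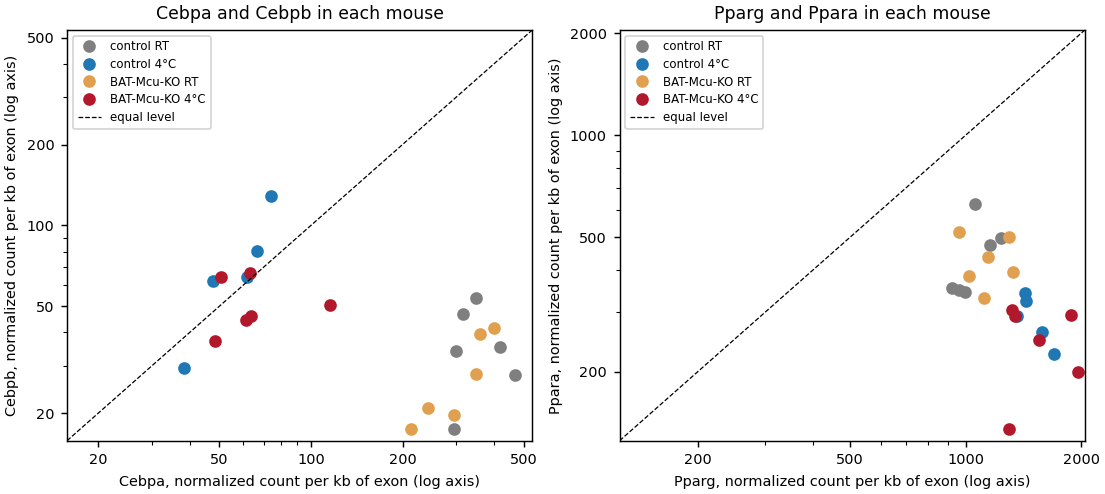
Levels per kb of exon (log axes) of Cebpa against Cebpb (left) and of Pparg against Ppara (right), with 1 point per mouse and a dashed line where both are equal. The cold mice gather around the line on the left (median ratio 0.828 in control) and move away from it on the right (4.65).

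Irf4 encodes an interferon regulatory factor that responds to fasting and cold in adipocytes and works with PGC1α on thermogenic genes. Its normalized count in control mice was 406 to 1146 at RT (median 558), and 5917, 1680, 1650, 3661 and 856 in control 4°C replicates 1 to 5. Replicate 5 lay within the RT range. Among the knockouts it was 416 to 1404 at RT (median 545), and 7836, 3013, 5297, 14344, 2055 and 2304 in the 6 mice at 4°C, all above the RT mice. Irf4 rose 3.49-fold in control (log2 fold change 1.80, SE 0.47, limma adjusted p = 0.00256) and 6.73-fold in the knockouts (2.75, SE 0.45, adjusted p = 1.69e-05). Its rise was the largest among the members in the knockouts, and in control it was above that of Cebpd (1.54) except without control 4°C replicate 1 (Cebpd 1.53, Irf4 1.45) and with quantile normalization (Cebpd 1.72, Irf4 1.66).

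Irf4 also varied most between mice of a group. Its SD within groups was 0.89 on the log2 scale, larger than that of 99.2% of the 2815 genes with a mean normalized count of at least 500. Nfia was the steadiest member at 0.13, larger than 17.3% of those genes. B lymphocytes also use Irf4. Of 4 markers of these cells only Cd79a was in the table, at a normalized count of 0 to 17.9, and it was lower at 4°C in the knockouts by a log2 difference of 1.91 (exact permutation p = 0.00216, adjusted p = 0.0231). In control mice the Cd79a difference was -0.77 (exact permutation p = 0.307, adjusted p = 0.615). The summed macrophage level was 401 to 934. Its log2 difference by cold was 0.05 in control (exact permutation p = 0.758, adjusted p = 0.949). Among the knockouts it was 0.37 (exact p = 0.0216, adjusted p = 0.115), with 2 of 6 markers called higher. At 4°C the log2 difference of BAT-Mcu-KO from control was 0.34 (exact p = 0.0476, adjusted p = 0.169). The part of either cell type in the Irf4 values was not tested.

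Separation of the temperatures without overlap was counted over all members, called or not. Only Pparg was higher by cold without overlap in control mice, and only Irf4 in the knockouts. Over all genes, called or not, 13.0% in control and 12.4% in the knockouts were higher without overlap. Lower without overlap were Prdm16, Ebf2, Ppara and Cebpa in control mice, and Ebf2, Ppara and Cebpa in the knockouts. The share of all genes was 12.3% in control and 11.9% in the knockouts. The share among called genes alone was not tested.

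The loss of Mcu moved no member past the test. At RT 0 of 10 were called (limma, smallest adjusted p = 0.986, and 0 at an unadjusted p under 0.05), where 7 genes or 0.0478% of all were called. At 4°C 0 were called (smallest adjusted p = 0.677, and 1 at an unadjusted p under 0.05), where 11 genes or 0.0751% were called. DESeq2 and edgeR on the recovered reads also called 0 members in either comparison. The intervals were narrow for the steady members, and at RT the log2 difference of BAT-Mcu-KO from control lay between -0.11 and 0.23 for Nfia and between -0.11 and 0.34 for Pparg. They were wide for others, from -0.57 to 1.02 for Cebpd and from -0.83 to 1.01 for Irf4, so differences within these intervals are not excluded.

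Irf4 was the member at an unadjusted p under 0.05. At 4°C its log2 difference of BAT-Mcu-KO from control was 1.04 (SE 0.47, 95% interval 0.08 to 2.00, unadjusted p = 0.0354, limma adjusted p = 0.677), and over the alternatives, with single mice left out among them, the adjusted p ranged from 0.314 (without control 4°C replicate 1, log2 difference 1.39) to 0.942. The ranges overlapped, at 2055 to 14344 against 856 to 5917 in control mice. Without control 4°C replicates 2 and 5, which were rich in muscle RNA, and the 3 RT mice left out with them, the difference was 0.46 (adjusted p = 0.942). At 4°C the interval was -0.22 to 0.61 for Cebpa, -0.66 to 0.11 for Ppara and -1.01 to 0.25 for Cebpb.

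The size of the cold effect was not shown to differ between genotypes for any member. The interaction called 0 of 10 (smallest adjusted p = 0.869, and 0 at an unadjusted p under 0.05). Over all genes limma called 0.0%, with 878 genes at an unadjusted p under 0.05, while DESeq2 called 28 genes and edgeR 0. The log2 difference of cold effects, BAT-Mcu-KO minus control, was 0.95 for Irf4 (95% interval -0.38 to 2.28) and -0.09 without the mice rich in muscle RNA. It was 0.41 for Cebpa (-0.17 to 0.98) and -0.25 for Ppara (-0.78 to 0.28). For Prdm16 it was -0.01 (-0.52 to 0.50).

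Per kb of exon, Pparg had the highest mean level of the 10 in every group, 1055 in control mice at RT and 1501 at 4°C, and Cebpd the lowest, 1.94 and 5.54. In control mice at RT the order after Pparg was Ppara (441), Nfia (420), Cebpa (357), Ebf2 (147), Irf4 (139), Ehmt1 (58.3), Prdm16 (57.4) and Cebpb (35.9). Neighbours in this order whose mice overlapped were Ppara, Nfia and Cebpa, then Ebf2 and Irf4, and then Ehmt1, Prdm16 and Cebpb. In control mice at 4°C the order after Pparg was Irf4 (561), Nfia (505), Ppara (289), Ebf2 (74.8), Cebpb (73.1), Cebpa (57.6), Ehmt1 (52.1) and Prdm16 (35.0). Irf4 overlapped with Nfia, and Ebf2, Cebpb, Cebpa and Ehmt1 overlapped with their neighbours. By its mean, Irf4 thus stood in place 6 at RT and in place 2 at 4°C, and Cebpa in places 4 and 7. In control mice at 4°C the Irf4 level ranged from 175 to 1207, which also spans the range of Ppara (226 to 341). In the knockouts at RT the order after Pparg was Nfia (436), Ppara (427), Cebpa (310), Irf4 (151), Ebf2 (141), Ehmt1 (58.5), Prdm16 (52.2) and Cebpb (27.8), where neighbours from Nfia to Ebf2 and from Ehmt1 to Cebpb overlapped. At 4°C it was Irf4 (1185), Nfia (492), Ppara (246), Ebf2 (80.3), Cebpa (67.1), Ehmt1 (52.0), Cebpb (51.5) and Prdm16 (31.0). There Pparg, Irf4 and Nfia overlapped in turn, as did the neighbours from Ebf2 to Prdm16.

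**Figure D4:**
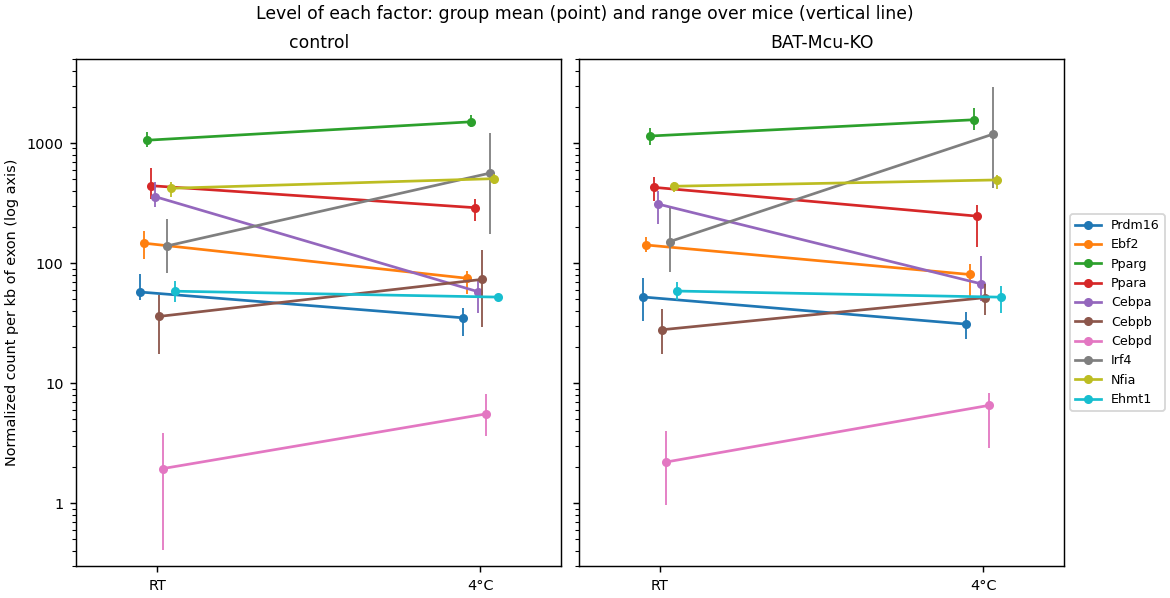
Mean level per kb of exon (points, log axis) of each member at RT and 4°C in control (left) and BAT-Mcu-KO mice (right), with vertical lines from the lowest to the highest mouse. Pparg stays on top (1055 and 1501 in control), while the lines of Irf4 and Cebpa cross those of other members.

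The members were transcribed from 8 chromosomes (GRCm38, GENCODE M21). Cebpa (chr7:35119293-35121928, + strand), Cebpb (chr2:167688915-167690418, + strand) and Cebpd (chr16:15887286-15891031, + strand) each lie in 1 exonic block without introns. Prdm16 (chr4:154316125-154636873, - strand), Nfia (chr4:97772734-98118874, + strand), Ebf2 (chr14:67233292-67430918, + strand) and Ehmt1 (chr2:24789928-24919614, - strand) are long genes with 19, 14, 17 and 30 merged exons. Pparg (chr6:115360951-115490399, + strand), Ppara (chr15:85734983-85802819, + strand) and Irf4 (chr13:30749226-30766976, + strand) have 13, 12 and 10. Reads were counted over all exons, so the values do not separate coding from untranslated parts. Besides the stretches shared by Cebpb and Cebpd, the longest exonic overlap was 424 bases of Ebf2 (6.12%) with an antisense gene that was not in the table. Nfia shared 4 bases with E130114P18Rik and Ehmt1 21 with Gm37139.

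Partners and relatives of the members also went both ways, as did genes over the whole table. Of 33 listed, 31 were in the table, with 8 higher and 10 lower at 4°C in each genotype. Over all genes 22.3% were called higher and 23.7% lower in control, and 21.4% and 21.9% in the knockouts. The median log2 fold change of the list was 0.06 in control and -0.04 in the knockouts, against -0.02 over all genes in both. Without the mice rich in muscle RNA the counts were 8 and 9 in control and 7 and 8 in the knockouts. The shares of all genes were then 19.0% and 19.6% in control, and 16.4% and 15.7% in the knockouts. These shares also apply to the lists below. Ppargc1a, the coactivator PGC1α, rose from a mean normalized count of 573 to 19302 in control mice (log2 fold change 5.10, SE 0.23, adjusted p = 1.95e-14) and by 4.33 in the knockouts (SE 0.22, adjusted p = 1.08e-13). Med1, the Mediator subunit that binds nuclear receptors, rose by 1.01 and 0.98 on the log2 scale. Cebpz, which despite its name is not a leucine zipper factor, rose by 1.03 and 1.10. The relatives of Nfia and the partner of Ehmt1 went down: Nfic fell by 1.21 in control and by 1.34 in the knockouts, Nfib fell by 0.60 and by 0.47, and Ehmt2 fell by 0.70 and by 0.57.

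Of 20 other regulators of adipocyte formation, 18 were in the table, with 6 higher and 5 lower in control mice (median 0.23) and 7 and 5 in the knockouts (median 0.19). The shares of all genes were 22.3% and 23.7% in control, and 21.4% and 21.9% in the knockouts. For the other 18 mice the counts were 6 and 5, and 5 and 4. The Krüppel-like factors Klf15, Klf9 and Klf4 rose by 1.71, 0.76 and 1.45 in control and by 1.57, 0.62 and 1.68 in the knockouts on the log2 scale. Srebf1, the activator of lipid synthesis genes, fell from a mean normalized count of 2369 to 344 in control mice (log2 fold change -2.78, SE 0.16, adjusted p = 9.55e-13) with -2.60 in the knockouts (SE 0.15, adjusted p = 1.32e-12). Stat5a, a cytokine-activated factor, had log2 fold changes of -2.05 and -1.92, and Zfp467, a zinc finger factor, of -1.40 and -1.47, all called.

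The listed genes selective for brown fat were more often called higher than lower. The list was chosen with earlier results known and holds Ucp1 and Dio2, which the authors used as positive controls for cold. Its counts describe the listed genes only. Of 17 in the table, 8 were higher and 3 lower in control mice (median 0.59), against 22.3% and 23.7% of all genes. In the knockouts the counts were 8 and 1 (median 0.39), against 21.4% and 21.9% of all genes. Without the mice rich in muscle RNA the counts were 7 and 1 in control and 9 and 0 in the knockouts. Dio2, the enzyme that activates thyroid hormone, rose by 5.19 and 4.96 on the log2 scale, the glycerol kinase gene Gk by 3.29 and 3.16, and the potassium channel gene Kcnk3 by 1.40 and 1.23. S100b had log2 fold changes of -0.90 and -0.48, both called. Cidea, a lipid droplet protein gene, was lower in control (-0.32, adjusted p = 0.00919) with -0.09 in the knockouts (adjusted p = 0.479), and Cox8b, a respiratory chain subunit gene, was lower in control (-0.48, adjusted p = 0.0183) with -0.20 (adjusted p = 0.334).

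Of 11 genes selective for white fat, 8 were in the table, with 1 higher and 2 lower in control (median -0.47) and 1 and 3 in the knockouts (median -0.34). The shares of all genes were 22.3% and 23.7% in control, and 21.4% and 21.9% in the knockouts. Without the mice rich in muscle RNA the counts were 1 and 2 in control and 2 and 1 in the knockouts. Lep, the gene of the hormone leptin, fell from a mean normalized count of 209 to 1.29 in control and from 229 to 1.37 in the knockouts (adjusted p = 2.08e-09 and 1.63e-09). Agt, the angiotensinogen gene, rose by 1.43 and 1.51 on the log2 scale. Retn, the resistin gene, was lower in control (-0.77, adjusted p = 0.00804), with -0.25 in the knockouts (adjusted p = 0.377).

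Textbook targets of PPARγ and C/EBPα did not move together. All 18 listed were in the table, with 3 higher and 8 lower in control (median -0.23), against 22.3% and 23.7% of all genes. In the knockouts the counts were 2 and 7 (median -0.04), against 21.4% and 21.9% of all genes. Without the mice rich in muscle RNA the counts were 2 and 6, and 2 and 4. The lipoprotein lipase gene Lpl rose by 1.15 and 1.11 on the log2 scale and the fatty acid transporter gene Cd36 by 0.28 and 0.33. Plin1, which coats lipid droplets, was higher in control (0.47, adjusted p = 0.0241), with 0.22 in the knockouts (adjusted p = 0.280). The triglyceride synthesis gene Dgat2 had log2 fold changes of -2.62 and -2.60, the hormone-sensitive lipase gene Lipe of -1.62 and -1.52, and Pck1, of glyceroneogenesis, of -0.70 and -0.40, all called.

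Of 21 targets of PPARα, 20 were in the table, with 5 higher and 5 lower in control (median 0.04), near the 22.3% and 23.7% of all genes. In the knockouts the counts were 9 and 1 (median 0.12), against 21.4% and 21.9% of all genes. Without the mice rich in muscle RNA the counts were 5 and 1, and 8 and 2. Plin2, a lipid droplet protein gene, rose by 1.04 and 0.99 on the log2 scale and Pdk4, a kinase that restrains pyruvate oxidation, by 1.32 and 1.03. The hormone gene Fgf21 rose from a mean normalized count of 2.28 to 109 in control (log2 fold change 5.29, SE 0.62, adjusted p = 1.60e-07) and from 2.71 to 26.1 in the knockouts (2.74, SE 0.59, adjusted p = 0.000545). Acaa1b, a peroxisomal oxidation gene, had log2 fold changes of -0.88 and -0.76, both called. Vnn1 had -1.40 (adjusted p = 0.00187) and -0.72 (adjusted p = 0.0830), and Acadm, a mitochondrial oxidation enzyme gene, -0.29 (adjusted p = 0.0178) and -0.13 (adjusted p = 0.286). In all 6 lists 0 genes were called by genotype at either temperature or by the interaction.

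For the 8 members called by cold in both genotypes, the genes with the most similar pattern over the 23 mice were found by the root mean squared difference of log2 levels, each gene taken relative to its own mean. For Pparg these were Aifm2 (0.13) and Mtpap (0.14), for Ebf2 Mmd (0.17) and Entpd5 (0.18), and for Ppara the neuropilin genes Nrp1 and Nrp2 (0.24 each). Prdm16 was nearest to Zfand1 (0.25) and the thyroid hormone receptor gene Thra (0.27), and Cebpa to Rwdd3 (0.35) and the cell cycle kinase gene Cdk6 (0.40). Cebpb was nearest to Abl2 (0.35) and Pitpna (0.39), Cebpd to Ifrd1 and Fdx1l (0.51 each), and Irf4 to Foxn2 (0.62) and Asl (0.65), the urea cycle enzyme gene. The distance was thus smallest for Pparg, which varied little between mice, and largest for Irf4, which varied most.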

How the data were processed

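RNA of BAT from 23 mice was sequenced with the Smart-seq2 method as paired reads of 25 bases, and groups and replicate numbers came from the sample labels. The authors aligned reads to mm10 (GENCODE M7) with STAR 2.4.0j and counted unique exonic reads with HTSeq irrespective of strand, and kept the 14651 genes that reached 8 reads in 6 or more samples. The signal the authors deposited is the count divided by the DESeq2 size factor. A second table holds the authors' own comparisons (fold changes and p-values) and was not used. All per-sample columns were matched by name (0 left out). In each library 100% of values were whole multiples of 1 read (tolerance 0.01 read), which gave back the reads and the depth of 7129271 to 21006347 reads. Read numbers include PCR copies, which are not independent molecules, so counting error alone understates their error. A level under 3 reads was taken as the floor, and Cebpd was below it in control RT replicate 1.

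The members and all lists were chosen with earlier results of these data known. Limma (version 3.58.1, R 4.3.3) was fitted to log2(normalized count + 1) with 4 group means, all 23 samples and a variance trend, and p-values were adjusted over 14651 genes by the Benjamini-Hochberg method. A fold change on this scale understates the change of low genes. Named genes were the members, at most 3 rising and 3 falling genes of each list with the smallest adjusted p for cold in control, the 2 nearest patterns of each member called in both genotypes, and genes that overlap a member. Marker sums were compared by exact permutation tests (two-sided, scipy 1.17.1), adjusted over 8 lists and 4 comparisons. The alternatives were other pseudocounts (0.5 or 10), a minimum mean normalized count of 50, quantile normalization, 75th percentile scaling, no variance trend, only the compared groups, a replicate block, tests of the recovered reads by DESeq2 (version 1.42.0) or edgeR (version 4.0.16), and the omission of each mouse in turn. Leaving out the 5 mice with a muscle marker sum of 20000 or more was added after the data were seen. Same-numbered mice of different groups are different animals, and the mean correlation of their deviations was -0.14 to 0.12 between pairs of groups, so the numbers were not taken as pairs. Between control and knockout mice at 4°C the correlations were all positive, 0.04 to 0.22 over 5 numbers. The replicate block was common to all 4 groups, so a link within the cold groups alone was not modelled. The fits were tested on simulated data. Exonic lengths came from GENCODE M21 and promoter windows from RefSeq. Tables were read with pandas 2.3.3 in Python 3.11.15, and figures drawn with matplotlib 3.10.9.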

Additional observations from a re-analysis of the deposited data

Results flagged for a closer look

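Of 40 groups of values tested (10 members in 4 groups), 1 held a mouse far from the others: the highest Cebpa value in BAT-Mcu-KO mice at 4°C, a normalized count of 304.6 in replicate 5, against 167 in the next mouse. The gap was 0.776 of the whole range, above the limit of 0.625 for 6 mice. Chance flags about 1 in 20 such groups. The log2 fold change of Cebpa by cold in these mice was -2.23 with all of them and ranged from -2.40 to -2.15 with each mouse left out in turn.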

How the results depend on the processing

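The number of members called by cold stayed between 7 and 9 in each genotype under every alternative run, and 0 members were called by genotype or interaction under any. With the replicate block the counts were 9 and 8, and no call of a member changed. The lost calls, those of Cebpb and Nfia, are given with their results, and a minimum mean of 50 removed Cebpd. Scaling to the 75th percentile moved the median log2 change of all genes by cold in control from -0.02 to -0.13 and the calls from 3269 higher and 3466 lower to 2644 and 4281, with the members called at 8. Over all genes, calls by genotype at RT and 4°C numbered 7 and 11 with limma and 20 and 23 with DESeq2, and by interaction 0 and 28. The cause was not tested.

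Values that changed sign all belonged to genotype or interaction differences that passed no test. With quantile normalization the interaction was 0.041 for Prdm16, 0.054 for Cebpb and 0.021 for Ehmt1, and the genotype difference of Ehmt1 at RT -0.024. With 75th percentile scaling the interaction was 0.047 for Prdm16, 0.030 for Cebpb, 0.027 for Cebpd and 0.026 for Ehmt1, and the genotype difference of Ehmt1 was -0.019 at RT and 0.0070 at 4°C. The Cebpd interaction was 0.069 with a pseudocount of 10 and 0.083 with the replicate block. Without the mice rich in muscle RNA the genotype difference at RT was 0.17 for Ppara, 0.068 for Cebpa, 0.079 for Cebpb and -0.11 for Cebpd, that of Pparg at 4°C was -0.025, and the interaction was 0.39 for Cebpd and -0.089 for Irf4.

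With each mouse left out in turn, the interaction ranged from -0.13 to 0.10 for Prdm16, -0.31 to 0.21 for Cebpb, -0.24 to 0.28 for Cebpd and -0.098 to 0.052 for Ehmt1. The genotype difference at RT ranged from -0.11 to 0.042 for Ebf2, -0.089 to 0.083 for Ppara, -0.075 to 0.45 for Cebpd, -0.12 to 0.26 for Irf4 and -0.046 to 0.070 for Ehmt1. At 4°C it ranged from -0.011 to 0.21 for Ebf2, -0.030 to 0.090 for Pparg, -0.078 to 0.013 for Nfia and -0.088 to 0.062 for Ehmt1. Depth limits Cebpd, at 2 to 47 reads per mouse, and Cebpb, at 22 to 264.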
